A study of Mus musculus with 16 samples.

Results

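The genes described here are 8 genes of the B cell antigen receptor and of the B lineage, Cd79a, Cd79b, Ms4a1, Fcmr, Cd22, Blk, Pou2af1 and Mzb1, taken by symbol from a table of 45777 genes. All 8 passed the filter on low counts, which left 19189 genes for testing. Their levels were read in epididymal white adipose tissue (eWAT), the visceral fat pad beside the epididymis, of male mice on a high-fat diet that supplied 60% of its energy as fat and began at 4 weeks of age. OE mice overexpressed LTA4H, leukotriene A4 hydrolase, the enzyme that makes leukotriene B4 in adipocytes (A-LTA4HOE in the labels), and Ctrl mice were their controls. The groups were OE at 20 weeks of age after 16 weeks of diet, Ctrl at the same age and diet time, OE at 8 weeks of age after 4 weeks of diet, and Ctrl at 8 weeks, with 4 RNA-seq libraries in each. The labels name neither the promoter of the transgene nor the strain, and all 16 libraries came from mice fed this diet, so no lean tissue is among them. Age and diet time moved together and cannot be told apart. The labels give every library its own number and do not say whether tissue of several mice was pooled, so p-values measure the spread between these libraries.

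On a B cell the antigen receptor is a membrane immunoglobulin bound to a dimer of CD79A and CD79B. These chains carry the tyrosine motifs that Src family kinases such as LYN and BLK phosphorylate and that recruit the kinase SYK, whereas CD22, a sialic acid-binding lectin, recruits the phosphatase SHP-1 and dampens the signal. B cells are known to accumulate in the visceral fat of mice on high-fat diets, where they present antigen and secrete cytokines and antibody. In bulk tissue, fewer B cells and less RNA per B cell cannot be told apart.

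The promoter table used here held 4 of the 8 genes. Their sequence before a start is shown because 3 of them, Cd79a, Fcmr and Pou2af1, lay closer to each other in their pattern over the libraries than to Cd22, the fourth. The stretches are chr7:24897247-24897380 on the plus strand for Cd79a, chr1:130865527-130865668 on the plus strand for Fcmr, chr9:51213440-51213689 on the plus strand for Pou2af1 and chr7:30879029-30879176 on the minus strand for Cd22. They are from RefSeq, build GRCm38.p6, and hold the bases within 250 before each RefSeq start that no GENCODE vM21 exon covers. For Cd79a, Fcmr and Pou2af1 that start is the start of the gene span given below, while the Cd22 start of the table lies inside the Cd22 gene span, so the Cd22 stretch is not upstream of the gene. Capitals mark a match to a searched motif.
Cd79a: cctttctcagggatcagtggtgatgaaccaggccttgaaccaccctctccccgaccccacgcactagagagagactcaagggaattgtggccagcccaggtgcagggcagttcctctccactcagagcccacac
Fcmr: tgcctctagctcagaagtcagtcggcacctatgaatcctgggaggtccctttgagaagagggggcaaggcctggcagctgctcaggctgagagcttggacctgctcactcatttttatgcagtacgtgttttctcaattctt
Pou2af1: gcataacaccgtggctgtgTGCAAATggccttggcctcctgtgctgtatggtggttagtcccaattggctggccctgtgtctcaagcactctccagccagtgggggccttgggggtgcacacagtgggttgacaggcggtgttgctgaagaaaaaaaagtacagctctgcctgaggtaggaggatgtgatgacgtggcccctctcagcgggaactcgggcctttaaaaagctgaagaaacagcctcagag
Cd22: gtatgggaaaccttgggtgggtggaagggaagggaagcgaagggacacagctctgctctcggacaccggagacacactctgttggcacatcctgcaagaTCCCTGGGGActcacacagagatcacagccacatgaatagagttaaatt

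Motifs were searched on both strands of the whole table windows, which run from 250 bases before to 50 bases from the start. In Cd22 the palindrome bound by the B lineage factor EBF, searched as TCCC and GGGA with any 2 bases between them, matched as TCCCTGGGGA from position -49, a match that 0.904% of 32851 promoter windows held. In Pou2af1 the letters TGCAAAT, the core of the octamer bound by OCT1 and OCT2, matched from position -231, as in 4.02% of windows. This core was chosen after the sequences were seen and lies inside the full octamer ATGCAAAT, which none of the 4 windows held and 1.74% of all windows did. AGGAAGT, a core bound by ETS factors and PU.1, matched in Cd79a from position -55, inside the exon that GENCODE draws there, as in 9.35% of windows. TATAAA matched in none of the 4 and in 13.6% of windows. Fcmr matched none of these letters.

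Libraries held 33.6 to 67.6 M counts, and the 8 genes had between 0 and 965 counts in a library. Lta4h, the check of the labels, had 268 ± 20.8 CPM (counts per M counts) in OE and 88.5 ± 5.37 CPM in Ctrl at 20 weeks, and 353 ± 77.9 CPM in OE and 89.7 ± 10.5 CPM in Ctrl at 8 weeks (SD, n = 4 each). Replicate 1 of 20-week Ctrl stood apart in lymphocyte genes: it was the highest of its group in 8 of the 8 genes, in 14 of 15 T cell markers and in 10 of 11 immunoglobulin constant regions, against 25.9% of all genes tested. It had the highest level in 0 of 12 lipid-associated macrophage markers and 0 of 8 mesothelial markers. Replicate 2 of 8-week OE was likewise the highest of its group in 8 of the 8 genes and in 10 of 12 macrophage markers, against 32.6% of all genes. With 8-week Ctrl replicate 4 it held epididymal duct transcripts, whose markers summed to 2705 CPM in the OE library and 4099 CPM in the Ctrl library, against at most 208 CPM elsewhere. Replicate 1 of 20-week OE had the lowest macrophage sum of the 20-week libraries, 3618 CPM against 5342 to 8567 CPM in the others.

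The label of the 8 genes was checked against other B lineage genes. Pax5, the transcription factor that keeps B cell identity, had 0.884, 1.31, 0.471 and 0.316 CPM in 20-week OE, against 11.2, 2.90, 1.53 and 3.05 CPM in 20-week Ctrl. Pax5 was detected in every library and, like the 8 genes, was highest in replicate 1 of 20-week Ctrl. For Cd22, however, this library was only 1.38 times the mean of the other 20-week Ctrl libraries. Cd22 also rose at 20 against 8 weeks in OE, where Pax5 was not called. The check by Pax5 therefore does not cover Cd22. Of 6 genes of B cell precursors, such as the surrogate light chain gene Vpreb1, 1 passed the filter, it was called in no comparison, and the list summed to at most 1.13 CPM in any library.

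Cd79a and Cd79b are the signalling chains of the receptor. Cd79a (gene ID 12518, chromosome 7, 24897497 to 24901858) had 1.45, 2.62, 1.23 and 0.879 CPM in replicates 1 to 4 of 20-week OE, against 24.9, 3.93, 2.64 and 6.37 CPM in 20-week Ctrl. At 8 weeks it had 1.39, 5.87, 2.25 and 1.77 CPM in OE, against 0.797, 2.2, 3.02 and 1.49 CPM in Ctrl. All 20-week OE libraries lay below all 20-week Ctrl libraries, by a narrow gap to replicate 3, while the 8-week groups overlapped. Cd79b (gene ID 15985, chromosome 11, 106311341 to 106314562) had 2.28, 3.56, 3.30 and 2.68 CPM in 20-week OE, against 19.2, 4.44, 5.03 and 6.46 CPM in 20-week Ctrl. In 8-week OE it had 2.87, 5.15, 2.37 and 2.49 CPM, against 1.83, 2.07, 3.33 and 2.19 CPM in 8-week Ctrl. The 20-week groups again did not overlap, and Ctrl replicate 1 was the highest of the 16 libraries for both chains.

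Ms4a1 and Fcmr encode surface proteins. Ms4a1, which encodes CD20 (gene ID 12482, chromosome 19, 11249679 to 11266149), had 1.23, 1.53, 0.602 and 0.361 CPM in 20-week OE, against 17.3, 2.73, 2.01 and 3.95 CPM in 20-week Ctrl. In 8-week OE its levels were 1.07, 3.02, 1.89 and 1.07 CPM, against 0.744, 1.04, 2.24 and 1.03 CPM in 8-week Ctrl. At 20 weeks the groups were apart, and at 8 weeks they overlapped. Fcmr, the receptor for the Fc part of IgM (gene ID 69169, chromosome 1, 130865777 to 130880790), had 0.908, 0.519, 0.367 and 0.180 CPM in 20-week OE, against 7.82, 1.33, 1.53 and 2.21 CPM in 20-week Ctrl. In 8-week OE it had 0.396, 0.997, 0.296 and 0.393 CPM, against 0, 0.950, 0.703 and 0.623 CPM in 8-week Ctrl, where the count of 0 allows up to 0.0797 CPM (3 counts, counting error only). Fcmr was the only gene of the 8 with a count of 0 in a library, and its 20-week groups did not overlap.

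Blk, Pou2af1 and Mzb1 act inside the cell. Blk, a Src family kinase of the receptor (gene ID 12143, chromosome 14, 63372837 to 63417187), had 1.15, 1.53, 0.707 and 0.924 CPM in 20-week OE, against 5.94, 1.65, 1.58 and 2.02 CPM in 20-week Ctrl. Its levels were 0.917, 2.29, 1.24 and 1.20 CPM in 8-week OE, against 0.531, 0.713, 1.36 and 0.988 CPM in 8-week Ctrl. The highest 20-week OE library lay just under the lowest 20-week Ctrl library. Pou2af1, the octamer coactivator OCA-B that germinal centres need (gene ID 18985, chromosome 9, 51213690 to 51240079), had 1.08, 3.78, 0.471 and 0.473 CPM in 20-week OE, against 13.7, 1.62, 1.56 and 2.51 CPM in 20-week Ctrl. In 8-week OE it had 0.619, 3.64, 1.15 and 2.14 CPM, against 0.425, 0.691, 1.66 and 1.52 CPM in 8-week Ctrl. Here the 20-week groups overlapped, since OE replicate 2 exceeded 3 of the 4 Ctrl libraries. Mzb1, a protein of the endoplasmic reticulum that aids antibody secretion in marginal zone, B1 and plasma cells (gene ID 69816, chromosome 18, 35647265 to 35650266), had 0.393, 1.14, 0.157 and 0.271 CPM in 20-week OE, against 8.34, 1.03, 0.679 and 2.51 CPM in 20-week Ctrl. At 8 weeks it had 0.347, 2.26, 1.15 and 1.27 CPM in OE, against 0.292, 0.540, 1.38 and 0.704 CPM in Ctrl. Both pairs of groups overlapped for Mzb1.

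Cd22 (gene ID 12483, chromosome 7, 30865404 to 30880342) had another pattern. It had 8.84, 18.6, 16.1 and 17.6 CPM in 20-week OE, against 28.0, 22.0, 24.2 and 14.5 CPM in 20-week Ctrl. In 8-week OE it had 1.26, 5.71, 1.18 and 1.05 CPM, against 1.06, 1.58, 1.38 and 1.64 CPM in 8-week Ctrl. Every 20-week library exceeded every 8-week library in both genotypes, and OE and Ctrl overlapped at each age. Replicate 1 of 20-week Ctrl was 1.38 times the mean of the other 3 Ctrl libraries for Cd22, whereas for the other 7 genes it was 3.39 (Blk) to 7.23 (Pou2af1) times that mean.

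**Figure D1:**
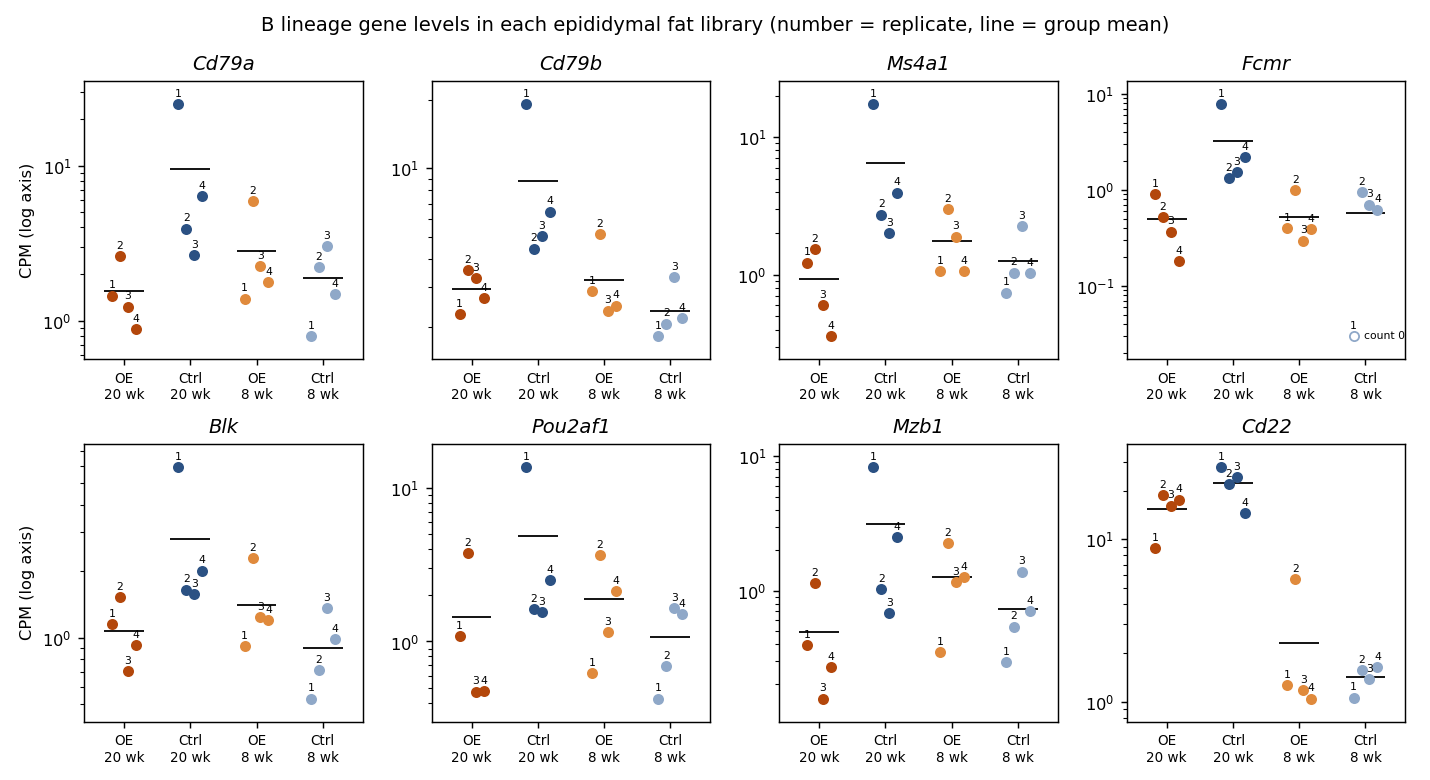
Levels of the 8 genes in each library, in CPM on a log axis. Numbers are replicates, lines are group means (n = 4), and the open circle marks a count of 0 placed at the foot of the axis; Ctrl replicate 1 at 20 weeks tops its group in all 8 panels, and Cd22 alone among these panels has both 20-week groups above both 8-week groups.

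Levels between genes were compared per length, as the authors' TPM (transcripts per M). In 20-week OE, Cd22 had the highest mean level with 8.06 ± 2.47 TPM (SD, n = 4), followed by Cd79b with 5.10 ± 0.995 and Cd79a with 3.25 ± 1.58 TPM. In 20-week Ctrl the order was Cd79a with 20.3 ± 21.9 TPM, Cd79b with 15.3 ± 11.9 and Cd22 with 12.4 ± 3.06 TPM, and the SDs of Cd79a and Cd79b exceed the gaps between these means. That order rested on replicate 1, with 52.7 TPM of Cd79a and 33.0 TPM of Cd79b: over the other 3 Ctrl libraries Cd22 had 11.3 ± 2.74 TPM, and Cd79a had 9.44 ± 4.24 and Cd79b 9.44 ± 1.99 TPM (SD, n = 3). In 8-week OE the highest means were 6.03 ± 5.09 TPM for Cd79a and 5.51 ± 2.82 TPM for Cd79b, and in 8-week Ctrl they were 3.79 ± 1.87 and 3.89 ± 1.12 TPM. Over the other 3 libraries of 8-week OE, without replicate 2, Cd79a had 3.51 ± 0.833 and Cd79b 4.11 ± 0.405 TPM. Cd22 had 1.27 ± 1.47 TPM in 8-week OE (0.538 ± 0.0203 without replicate 2) and 0.688 ± 0.168 TPM in 8-week Ctrl. Mzb1 had mean levels of 0.910 ± 1.01 TPM in 20-week OE, 7.07 ± 8.11 in 20-week Ctrl, 2.53 ± 1.89 in 8-week OE and 1.30 ± 0.765 in 8-week Ctrl, and 3.13 ± 2.31 TPM in 20-week Ctrl without replicate 1. Ms4a1, Fcmr, Blk and Pou2af1 had group means between 0.658 and 4.68 TPM, and their 20-week Ctrl means without replicate 1 were 2.12, 2.47, 1.54 and 1.61 TPM.

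The first comparison over age and diet time was that of 20-week with 8-week Ctrl tissue. Of the 8 genes, 6 rose in 20-week Ctrl (edgeR's quasi-likelihood test, adjusted p under 0.05), and 0 fell, beside 19.6% of all genes tested called higher and 21.3% called lower. Cd22 differed most, 15.6-fold (log2 fold change 3.96 ± 0.51, SE; adjusted p = 9.81e-05). Cd79b had the next smallest adjusted p, at a smaller change of 3.72-fold (1.89 ± 0.43; adjusted p = 0.00385). Ms4a1 rose by 2.36 ± 0.69 on the log2 scale (adjusted p = 0.0155) and Cd79a by 2.33 ± 0.70 (adjusted p = 0.0178). Fcmr rose by 2.49 ± 0.88 (adjusted p = 0.0367) and Blk by 1.63 ± 0.47 (adjusted p = 0.0143). Pou2af1 (2.17 ± 0.88, adjusted p = 0.0610) and Mzb1 (2.1 ± 0.83, adjusted p = 0.0561) did not pass. The groups did not overlap for 4 genes, Cd22, Cd79b, Fcmr and Blk, beside 18.5% of all genes that were higher without overlap. DESeq2 called 8 of the 8 genes, beside 45.8% of all genes in either direction, and limma voom 3, Cd22, Cd79b and Blk, beside 54.8%. The median log2 fold change of the 8 genes was 2.25, and that of all genes tested was -0.05.

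Without 20-week Ctrl replicate 1, 2 of the 8 genes were called, Cd22 (3.83 ± 0.54, adjusted p = 0.000317) and Cd79b (1.17 ± 0.30, adjusted p = 0.00964). Cd79a was then at 1.20 ± 0.56 (adjusted p = 0.107), Ms4a1 at 1.20 ± 0.53 (0.0938), Fcmr at 1.56 ± 0.85 (0.165) and Blk at 0.96 ± 0.38 (0.0659), and the median fell to 1.18. The share of all genes called higher in that fit is not given here, and was 19.6% with all 16 libraries. The 2 calls of the 8 are therefore not read as an excess over all genes. Over all alternatives the adjusted p ran from 3.02e-15 to 0.00444 for Cd22 and from 9.61e-05 to 0.120 for Cd79b. Replicate 1 was also the highest Ctrl library in Cd3e, a chain of the T cell receptor complex, at 6.52 CPM against 1.22 to 1.71 CPM in the other 3. The T cell list summed to 152 CPM in it and to 89.8 to 106 CPM in the others, and its part in these results was not tested.

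In OE, 20-week against 8-week tissue showed 1 of the 8 genes called, Cd22, beside 13.1% of all genes called higher and 9.91% called lower. Cd22 was 6.66-fold higher at 20 weeks (2.73 ± 0.49, adjusted p = 0.00165), with the adjusted p between 2.29e-07 and 0.0208 over all alternatives. It was also the sole gene of the 8 without overlap, beside 12.9% of all genes that were higher without overlap. The other 7 genes had log2 fold changes of -1.36 ± 0.83 (Mzb1) to -0.08 ± 0.87 (Fcmr), with adjusted p from 0.250 to 0.961. Their 20-week and 8-week OE libraries overlapped in each case. The median of the 8 genes was -0.38, against -0.03 for all genes. Cd22 was at 3.71 ± 0.30 without 8-week OE replicate 2 and at 2.93 ± 0.50 without 20-week OE replicate 1, and it was the gene called in both fits.

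**Figure D2:**
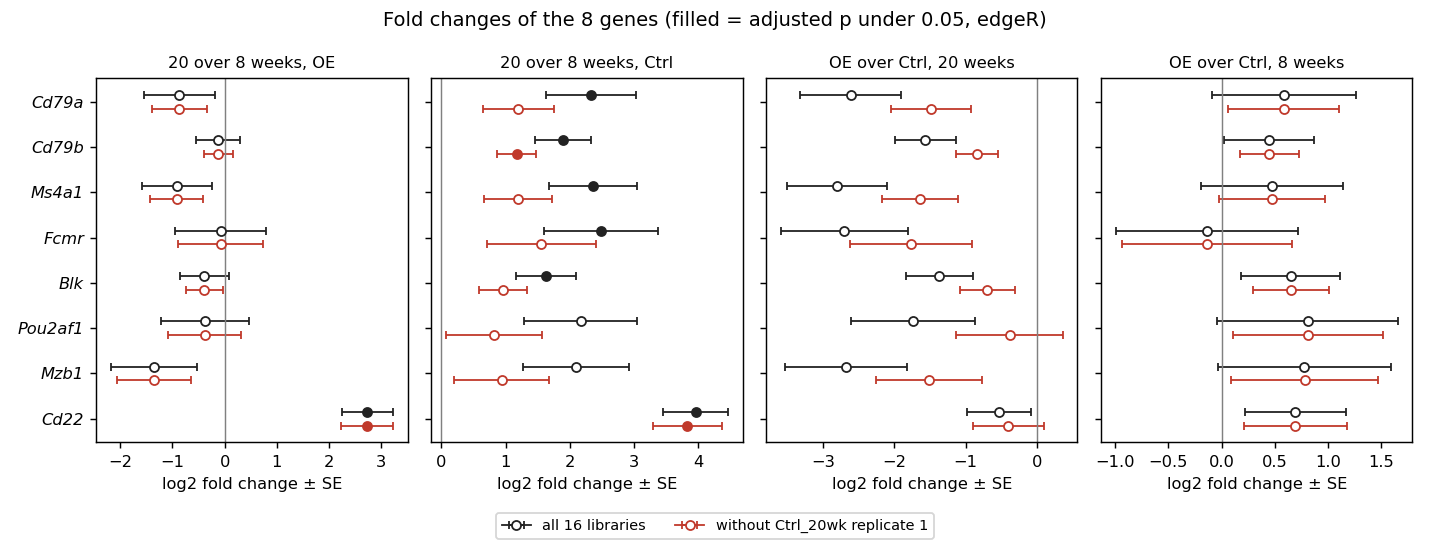
Log2 fold changes (bars are SE, from edgeR) of the 8 genes in the 4 pairwise comparisons, with all 16 libraries in black and without 20-week Ctrl replicate 1 in red. Filled points have an adjusted p under 0.05; the 6 filled black points of 20 over 8 weeks in Ctrl leave 2 filled red ones, and Cd22 is the filled point of the OE panel.

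Other genes of the receptor pathway also rose with age and diet time. Of all genes tested, 13.1% were called higher and 9.91% lower in OE, and 19.6% and 21.3% in Ctrl. Of 20 co-receptor and signalling genes, 14 rose and 0 fell in OE, and 17 rose and 0 fell in Ctrl, with median log2 fold changes of 1.03 and 1.98. Pik3ap1, the adaptor BCAP that recruits PI3-kinase to the receptor complex, rose by 2.47 ± 0.34 in OE and by 3.0 ± 0.35 in Ctrl. Vav1, a guanine nucleotide exchange factor, rose by 1.75 ± 0.29 in OE and by 2.43 ± 0.30 in Ctrl, and Blnk, the linker between SYK and phospholipase C, by 2.67 ± 0.40 in OE and by 3.04 ± 0.40 in Ctrl. Macrophages are known to use Syk, Lyn, Btk, Plcg2, Vav1 and Pik3ap1 as well. Cr2, which encodes the complement receptor CD21, was at 0.48 ± 1.03 in OE (adjusted p = 0.762) and rose by 2.60 ± 0.98 in Ctrl, a call that was lost without 20-week Ctrl replicate 1 (1.76 ± 0.99, adjusted p = 0.179).

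Among 12 transcription factors of the B lineage, 2 rose and 2 fell in OE, and 5 rose and 2 fell in Ctrl. The OE counts lay near the shares of all genes. Irf8 rose by 1.47 in OE and by 1.55 in Ctrl, and Pou2f2, which encodes the octamer factor OCT2, by 1.98 in OE and by 2.30 in Ctrl. Ebf1, which in fat is also an adipocyte factor, fell by 0.86 on the log2 scale in OE and by 0.98 in Ctrl. Pax5 was at -1.03 ± 0.62 in OE (adjusted p = 0.243) and rose by 2.21 ± 0.63 in Ctrl (adjusted p = 0.0135), again lost without 20-week Ctrl replicate 1 (1.31 ± 0.52, adjusted p = 0.0674), when 2 of the 12 factors rose in Ctrl. Of 18 tested B cell surface and follicle genes, 6 rose and 1 fell in OE, and 14 rose and 1 fell in Ctrl, or 9 and 1 without 20-week Ctrl replicate 1. Cd72, an inhibitory co-receptor, rose by 4.01 in OE and by 4.50 in Ctrl, Cd180, a Toll-like receptor relative, by 2.79 in OE and by 3.15 in Ctrl, and the tetraspanin Cd37 by 1.70 in OE and by 2.57 in Ctrl. Which cells carried the rises of these listed genes was not tested.

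Factors that attract B cells or keep them alive were read as a list of 10 genes, of which 2 rose and 0 fell in OE and 3 rose and 1 fell in Ctrl (2 and 2 without 20-week Ctrl replicate 1). The shares of all genes called were 13.1% higher and 9.91% lower in OE, and 19.6% and 21.3% in Ctrl. The attractant counts did not stand out from these shares. Tnfsf13b, which encodes the survival factor BAFF, rose by 0.64 ± 0.15 in OE and by 1.12 ± 0.15 in Ctrl, and Tnfsf13, which encodes APRIL, by 1.26 ± 0.24 in OE and by 1.59 ± 0.25 in Ctrl. Ccl21a, a lymphoid chemokine, was at -1.45 ± 0.87 in OE (adjusted p = 0.242) and fell by 3.37 in Ctrl. Of 10 plasma cell genes, 3 rose and 0 fell in OE, and 5 rose and 1 fell in Ctrl (3 and 2 without 20-week Ctrl replicate 1), among them Slamf7, by 1.96 in OE and by 2.59 in Ctrl, and Prdm1, the factor BLIMP1 of antibody-secreting cells, by 1.18 in OE and by 1.15 in Ctrl. Of 11 tested immunoglobulin constant regions, 2 rose in OE and 8 in Ctrl, and the 8 became 3 without 20-week Ctrl replicate 1 and 4 without 8-week Ctrl replicate 4 and 8-week OE replicate 2. Without 8-week OE replicate 2, 1 rose in OE. The immunoglobulin count in OE did not stand out from the share of all genes. Igkc, the kappa light chain, had 12.4 to 179 CPM in 20-week OE and 24.2 to 534 CPM in 20-week Ctrl, and it rose by 3.58 ± 1.14 in Ctrl over 8 weeks (adjusted p = 0.0234; without replicate 1, 1.87 ± 0.95, adjusted p = 0.138) and was at 0.91 ± 1.04 in OE (adjusted p = 0.548). Ighm, the mu heavy chain, had 263 to 690 CPM in 20-week OE and 273 to 1549 CPM in 20-week Ctrl, against 564 to 1425 CPM in 8-week OE and 386 to 1083 CPM in 8-week Ctrl. Ighm was not called at 20 against 8 weeks (-0.81 ± 0.52 in OE and -0.39 ± 0.51 in Ctrl, the Ctrl value being -1.18 ± 0.44 without replicate 1).

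Markers of other cells were read beside shares of all genes, 13.1% higher and 9.91% lower in OE, and 19.6% and 21.3% in Ctrl. Of 12 macrophage markers, 10 rose and 1 fell in OE and 11 rose in Ctrl, with a summed level of 3618 to 8327 CPM in 20-week OE against 1886 to 3238 CPM in 8-week OE, and of 5342 to 8567 CPM in 20-week Ctrl against 1495 to 2560 CPM in 8-week Ctrl. The 15 T cell markers summed to 63.9 to 142 CPM in 20-week OE against 27.9 to 60.1 CPM in 8-week OE, and to 89.8 to 152 CPM in 20-week Ctrl against 22.9 to 50.8 CPM in 8-week Ctrl. Of these, 1 rose in OE and 3 in Ctrl (2 without 20-week Ctrl replicate 1). Neither count stood out from the shares of all genes. Their median log2 fold change was -0.45 in OE, where 11 of the 15 were negative and 4 positive. In Ctrl it was 0.83, and -0.05 without 20-week Ctrl replicate 1. The higher sums in OE therefore do not stand for most of the 15 genes. Of 7 tested plasmacytoid dendritic cell markers, 2 rose and 1 fell in OE and 2 rose in Ctrl, and Siglech fell by 1.48 in OE and was at -0.35 ± 0.40 in Ctrl. Of 12 lipid-associated macrophage markers, 11 rose in OE and 10 in Ctrl, and of 10 adipocyte markers, 7 fell in each genotype. Of 8 mesothelial markers, 7 fell in OE and 2 in Ctrl (1 without 20-week Ctrl replicate 1). Of 6 lymphatic endothelial markers, 2 fell in OE (5 without 20-week OE replicate 1) and 5 in Ctrl. Of 4 tested epididymal markers, 2 fell in OE and 3 in Ctrl, and without 8-week OE replicate 2, or without 20-week OE replicate 1, the count in OE was 0. Their part in the results for the 8 genes was not tested.

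The pattern of each gene over the 16 libraries was compared with 13439 other genes by the root mean square difference of log2 CPM, each gene centred on its own mean. The nearest genes to Cd22 were Ms4a7, an MS4A family member of macrophages, at 0.34, Clec12a, an inhibitory lectin of myeloid cells, at 0.34, and Hpgds, the hematopoietic prostaglandin D synthase, at 0.39. The distance of Cd22 from the other 7 genes was 1.46 (Cd79b) to 2.04 (Mzb1), whereas those 7 lay 0.31 to 1.11 from each other. Cd79a was nearest to Ms4a1 at 0.31 and Pax5 at 0.37, and Ms4a1 to Cd79a and to Pax5, both at 0.31. Cd79b and Blk were nearest to each other at 0.33, and both had H2-Ob, which encodes a chain of the class II modulator H2-O in B cells, among their nearest, at 0.34 and 0.39. Mzb1 was nearest to Pou2af1 at 0.47. Among the 8 genes, Fcmr was nearest to Cd79a, at 0.81. Without 20-week Ctrl replicate 1, Ms4a7 and Clec12a stayed the nearest to Cd22 at 0.28 and 0.33, while the nearest to Cd79b became Ugt1a7c, Emilin1 and Fdxr, at 0.30 to 0.33. H2-Ob was then no longer among the 3 nearest of Cd79b or of Blk, whose nearest stayed Cd79b at 0.33. Cd79a, Ms4a1 and Mzb1 kept the same 3 nearest genes, and those of Pou2af1 and Fcmr changed in part.

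**Figure D3:**
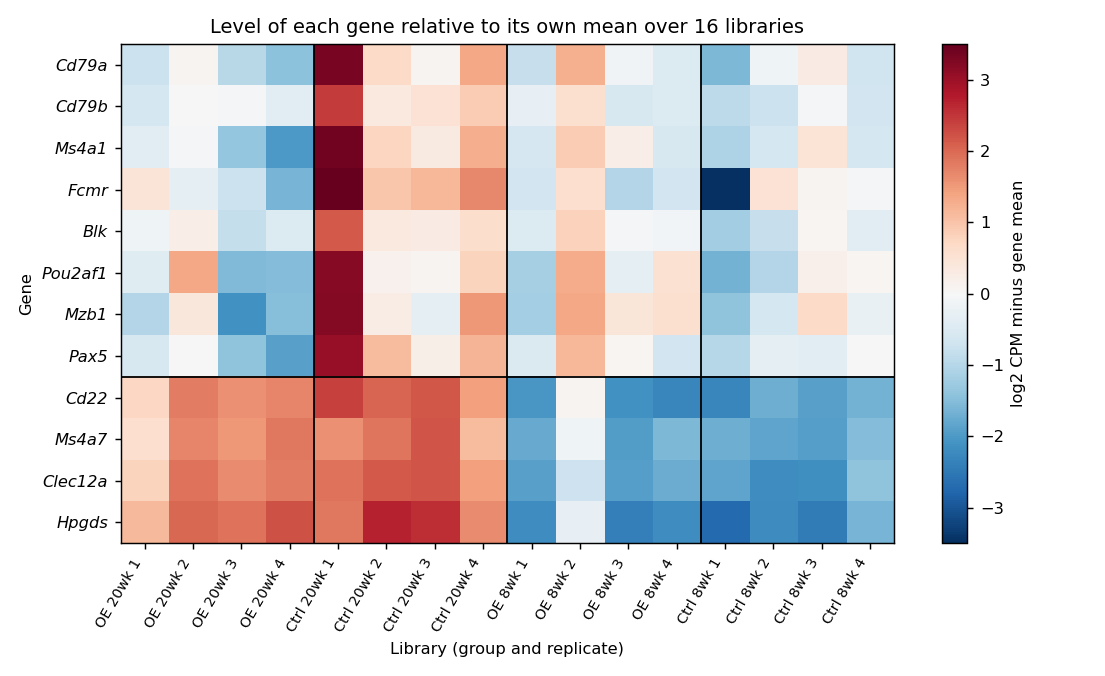
Log2 CPM of each gene minus its own mean over 16 libraries, in color, with libraries in columns by group and the colors limited to 3.5 either way. The 7 genes above the line, with Pax5, are highest in 20-week Ctrl replicate 1, and Cd22, Ms4a7, Clec12a and Hpgds below it are high in all 20-week libraries.

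At 20 against 8 weeks, Ms4a7 rose by 2.64 ± 0.39 in OE and by 3.5 ± 0.41 in Ctrl, beside 2.73 and 3.96 for Cd22. Clec12a rose by 3.09 ± 0.32 in OE and by 3.82 ± 0.33 in Ctrl. Trem2, a receptor of lipid-associated macrophages, had 147, 289, 256 and 345 CPM in 20-week OE, against 11.3, 50.8, 7.81 and 7.71 CPM in 8-week OE, where replicate 2 is the high library for both Trem2 and Cd22. In Ctrl, Trem2 had 250, 432, 402 and 220 CPM at 20 weeks, against 11.7, 9.07, 7.32 and 7.59 CPM at 8 weeks. The ratio of Cd22 to Cd79a in TPM had a median of 2.54 in 20-week OE (1.5 to 4.90) and of 1.04 in 20-week Ctrl (0.294 to 2.27). At 8 weeks it was 0.178 in OE (0.125 to 0.256) and 0.217 in Ctrl (0.110 to 0.316). The ratio of Ms4a1 to Cd79a stayed between 0.136 and 0.306 in all 16 libraries.

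**Figure D4:**
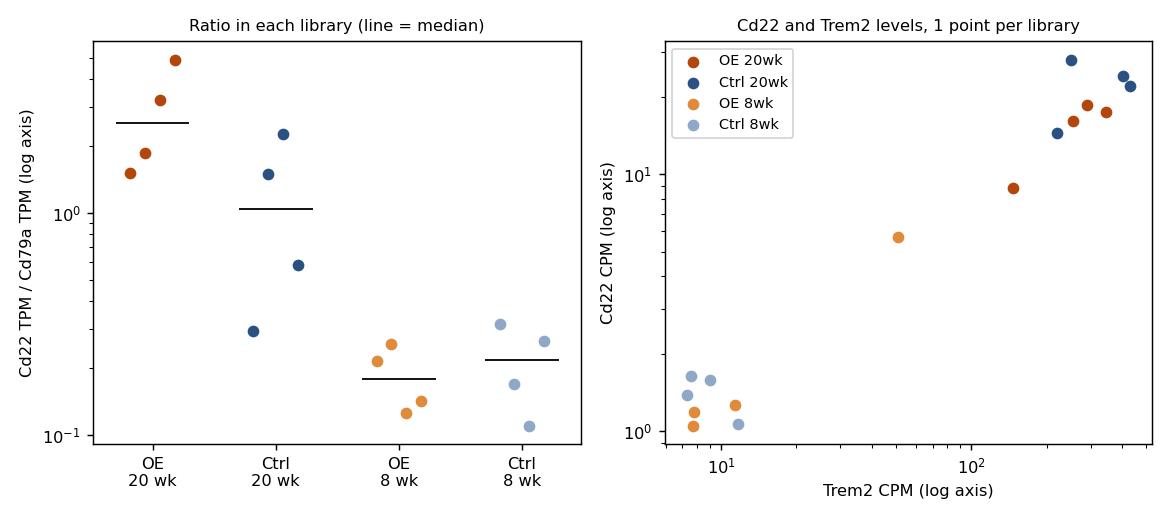
Left, Cd22 TPM divided by Cd79a TPM in each library on a log axis, with lines at group medians of 2.54, 1.04, 0.178 and 0.217. Right, Cd22 against Trem2 in CPM on log axes, with 1 point per library, where the lone 8-week OE point between the clusters is replicate 2, with 5.71 CPM of Cd22 and 50.8 CPM of Trem2.

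OE and Ctrl were then compared at 20 weeks, which asks how the genes stood under extra adipocyte LTA4H after the long diet. By edgeR's quasi-likelihood test 0 of the 8 genes were called, beside 0.0261% of all genes. The levels of 5 genes, Cd79a, Cd79b, Ms4a1, Fcmr and Blk, were lower in every OE library than in any Ctrl library, beside 1.49% of all genes that were lower without overlap. Leaving out Ctrl replicate 1, the highest library, could not close the gap, since it lay at the lowest Ctrl library. The gap was narrow for Cd79a (2.62 CPM in OE against 2.64 in Ctrl) and for Blk (1.53 against 1.58 CPM). At an unadjusted p under 0.05 there were 6 of the 8 genes, against 3.97% of all genes. The genes other than Cd22 had similar patterns over the libraries, so their tests are not independent of each other. The 8 genes were also chosen with earlier results of these data known. Ms4a1 was 6.97-fold lower in OE (log2 fold change -2.80 ± 0.70, adjusted p = 0.701), and Cd79a 6.11-fold lower (-2.61 ± 0.71, adjusted p = 0.964), differences that did not pass the correction.

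Fcmr was at -2.70 ± 0.89, Mzb1 at -2.67 ± 0.85, Cd79b at -1.57 ± 0.43 and Blk at -1.37 ± 0.47, each with an unadjusted p under 0.05 and with adjusted p from 0.966 to 0.996 by edgeR. Pou2af1 at -1.74 ± 0.86 and Cd22 at -0.54 ± 0.45 did not have an unadjusted p under 0.05. DESeq2 called 2 of the 8 genes, both lower in OE, Ms4a1 (adjusted p = 0.0126) and Cd79a (adjusted p = 0.0328), beside 0.307% of all genes, and limma voom called 0, beside 0.104%. Over all alternatives the adjusted p of Ms4a1 ran from 0.0126 to 1 and that of Cd79a from 0.0328 to 1. Without Ctrl replicate 1, the log2 fold change was -1.64 ± 0.54 for Ms4a1, -1.48 ± 0.56 for Cd79a, -0.84 ± 0.30 for Cd79b, -1.77 ± 0.86 for Fcmr, -1.52 ± 0.75 for Mzb1, -0.70 ± 0.38 for Blk and -0.39 ± 0.75 for Pou2af1. Without 20-week OE replicate 1 it was -2.96 ± 0.82 for Ms4a1, -2.58 ± 0.83 for Cd79a and -0.34 ± 0.48 for Cd22, with 0 of the 8 called. Without Ctrl replicate 1, 3 of the 8 had an unadjusted p under 0.05 by edgeR, and the median of the 8 was -1.16, against -2.17 with the library and 0.02 for all genes. The share of all genes at this limit was not computed without that library. The 3.97% above is from the fit with all 16 libraries.

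Pax5 lay the same way as the 8 genes without passing the test, at -2.65 ± 0.64 in 20-week OE against Ctrl (adjusted p = 0.617), and at -1.74 ± 0.53 without 20-week Ctrl replicate 1. No gene of the receptor signalling, transcription factor, surface, plasma cell, attractant and immunoglobulin lists was called, and their medians were -0.22, -0.25, -1.01, -0.21, -0.16 and -1.52. Without 20-week Ctrl replicate 1 these medians were -0.22, -0.14, -0.54, 0.0020, 0.07 and -0.22, with 0 called. T cell markers had a median of -0.96 (-0.21 without that library) and macrophage markers of -0.27 (-0.28), with 0 called in each. Whether the T cell values bear on those of the 8 genes was not tested.

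At 8 weeks, 0 of the 8 genes were called in OE against Ctrl, beside 0.0208% of all genes, and 0 had an unadjusted p under 0.05, against 2.21% of all genes. DESeq2 and limma voom also called 0 of the 8, beside 0.0782% and 0.0625% of all genes. The groups overlapped for all 8 genes, beside 0.787% of all genes that were higher and 0.448% that were lower without overlap. Log2 fold changes were 0.45 ± 0.42 (Cd79b) to 0.81 ± 0.85 (Pou2af1) for 7 of the genes and -0.14 ± 0.86 for Fcmr, with a median of 0.62 against 0.00181 for all genes. Without OE replicate 2 the value was -0.29 ± 0.28 for Cd22, -0.06 ± 0.68 for Cd79a and 0.08 ± 0.71 for Ms4a1, and the median was 0.11. That library was 4.90 times the mean of the other 3 OE libraries for Cd22, 3.26 times for Cd79a and 2.0 to 2.79 times for the other 6 genes.

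The interaction asked whether the difference between OE and Ctrl was unlike at the 2 ages. By edgeR 0 of the 8 genes were called, beside 0% of all genes, by DESeq2 also 0, beside 0.156%, and by limma voom 0, beside 0%. At an unadjusted p under 0.05 there were 5 of the 8, Cd79a (-3.20 ± 0.97), Ms4a1 (-3.28 ± 0.96), Mzb1 (-3.45 ± 1.17), Cd79b (-2.02 ± 0.60) and Blk (-2.02 ± 0.66), against 3.39% of all genes, each with an adjusted p of 0.982 by edgeR. These tests too are not independent of each other, and the 8 genes were chosen with earlier results known. Fcmr was at -2.56 ± 1.22, Pou2af1 at -2.55 ± 1.21 and Cd22 at -1.23 ± 0.65. Without 20-week Ctrl replicate 1 the median of the 8 was -1.49, against -2.55 with it. In that fit 0 of the 8 were called, and 5 had an unadjusted p under 0.05 by edgeR. The share of all genes at this limit was not computed there. The rise of the 6 genes in Ctrl and of Cd22 alone in OE is therefore not shown to differ between the genotypes.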

How the data were processed

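Total RNA of 16 eWAT libraries was sequenced after TruSeq stranded mRNA preparation, per the labels' protocols. Tools named in the submitters' processing notes are HISAT2 2.1.0, StringTie 2.1.3b, Trimmomatic and bcl2fastq 2.20.0, with build mm10; the strand setting and annotation release are not given in the sources used here. The authors' deposited read counts per gene, whole numbers and not normalised, were tested. The authors' deposited TPM values served to compare levels between genes, and the authors' deposited FPKM values were not used. Libraries held 33.6 to 67.6 M counts, and the precision of low genes is set by their counts, 0 to 270 for Fcmr over the 16 libraries.

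Tests ran in edgeR 4.0.16 (R 4.3.3): filterByExpr at a minimum count of 10, TMM, a robust quasi-likelihood fit of 4 groups with 12 residual degrees of freedom, and Benjamini-Hochberg adjustment over 19189 genes, with calls at 0.05. The ± beside a log2 fold change is a standard error derived from this model's F test, the absolute log2 fold change divided by the square root of F. CPM are TMM-scaled, with a prior count of 2 where patterns were compared on the log2 scale. DESeq2 1.42.0, limma 3.58.1 with voom and sva 3.50.0 gave alternatives, beside other filters, subsets of libraries (those for gene lists and mean TPM chosen after seeing the data) and a replicate block. The fit was also run on simulated counts in which no library was made to stand apart, and its results are not reported here. Gene positions come from RefSeq by gene ID. Named were the 8 genes, Lta4h, Pax5, Cr2, Ighm, Igkc, Cd3e, Siglech, Trem2, up to 3 called genes per list with the smallest adjusted p, and the 3 nearest patterns of each of the 8 genes. The 8 genes and the 15 other lists were chosen with earlier results of these data known. A gene that this rule also names is not reported here.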

Additional observations from a re-analysis of the deposited data

Results flagged for a closer look

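Of 32 sets of 4 libraries (8 genes in 4 groups), 8 passed Dixon's 95% limit. Chance passes it in about 1 of 20 sets of normal values. In each of the 8 sets, 1 library had a gap to its nearest neighbour above this limit, as a share of the group's range. In 20-week Ctrl this was replicate 1 for 6 genes. It had 24.9 CPM of Cd79a, 19.2 CPM of Cd79b, 17.3 CPM of Ms4a1, 13.7 CPM of Pou2af1, 7.82 CPM of Fcmr and 5.94 CPM of Blk, where the next Ctrl library had 6.37, 6.46, 3.95, 2.51, 2.21 and 2.02 CPM. In 8-week OE it was replicate 2 for 2 genes, with 5.71 CPM of Cd22 and 0.997 CPM of Fcmr, where the next OE library had 1.26 and 0.396 CPM. The sets share their libraries and are not independent of each other. The limit was applied to CPM, which were not shown to be normal, so the rate of chance passes may differ here.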

How the results depend on the processing

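Over the alternatives tried, 943 values kept their direction and side of the threshold, 18 lost and 9 gained a call, and 22 changed sign, all of the 22 among differences that were not called. Of the 8 genes, 6 were called at 20 against 8 weeks in Ctrl, against 3 with limma voom, 1 with 2 surrogate variables and 2 to 8 when each library was left out. The low end was without 20-week Ctrl replicate 1. At 20 weeks, OE against Ctrl gave 0 of the 8 and 2 with DESeq2.

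Over all genes, 4 were called in OE against Ctrl at 8 weeks, against 15 with DESeq2, 12 with limma voom, 8 with only the groups compared in the fit and 4 to 9 with a library left out. At 20 weeks there were 5, against 59 with DESeq2, 20 with limma voom, 3 without 8-week Ctrl 1, 8-week OE 1 and 20-week OE 1 together, and 3 to 6 with a library left out. The comparison of 20 with 8 weeks called 4411 genes in OE, against 7648 with limma voom, 2695 with 2 surrogate variables and 2733 to 5786 with a library left out, and 7853 in Ctrl, against 1758 with 2 surrogate variables and 5483 to 8105. The interaction called 0, against 30 with DESeq2 and 0 to 3 with a library left out.

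Signs turned in OE against Ctrl at 8 weeks for Cd22 (-0.12) and Cd79a (-0.038) with limma voom, for Fcmr (0.27) with 2 surrogate variables, and for Cd22 (-0.21), Cd79a (-0.16) and Ms4a1 (-0.0057) without 8-week Ctrl 4 and 8-week OE 2. With a library left out Cd22 ran from -0.29 to 0.93, Cd79a from -0.060 to 0.91 and Fcmr from -0.65 to 0.22. At 20 against 8 weeks in OE they turned for Cd79b (0.22) and Fcmr (7.6e-05) with limma voom, for Pou2af1 (0.29) and Fcmr (0.85) with 2 surrogate variables, and for Cd79b (0.20), Pou2af1 (0.15) and Fcmr (0.44) without 8-week Ctrl 4 and 8-week OE 2. With a library left out Cd79b ran from -0.24 to 0.20, Pou2af1 from -1.48 to 0.15 and Fcmr from -0.55 to 0.44. The cause of these changes was not tested.

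Libraries with the same replicate number are not labelled as pairs. The correlation of their deviations from the group means ran from -0.60 to 0.83. The highest was that of 8-week OE 1 with 8-week Ctrl 1, and 20-week OE 1 was at -0.57 and -0.60 with these. The cause was not tested. With the replicate block, 5 of the 8 genes were called at 20 against 8 weeks in Ctrl, Fcmr being at 2.22 (adjusted p = 0.102, against 0.00844 to 0.165 over all alternatives, edgeR unless named), and no other call of the 8 genes changed. Values of the gene lists and of mean TPM without the libraries that stand apart were added after seeing the data.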
